A study of Mus musculus with 8 samples.

Results

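The 10 genes described here belong to the circadian clock and are expressed in macrophages of epididymal white adipose tissue, the visceral fat beside the epididymis. They are Ciart, Bhlhe40, Bhlhe41, Nr1d1, Nr1d2, Dbp, Per1, Per2, Cry1 and Arntl (also called Bmal1), out of 41388 genes in the count tables. They were found by symbol, after Ensembl identifiers had been paired with GENCODE M21, and all 10 passed the low-count filter that left 13933 genes. The list was selected on earlier results of these same libraries, in which Ciart and Bhlhe41 stood among the genes with the largest differences between the populations. The differences between populations in these 10 genes are therefore a description and carry no p-value.

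The libraries came from 4 male MitoFat mice on normal chow. The strain carries a mitochondrial reporter confined by its label to adipocytes, and its driver is not named in the sources used here. A reporter signal (mtD2) in a macrophage thus marks mitochondrial material from adipocytes. From the fat pad of each mouse, live CD45+ F4/80+ CD64+ cells were sorted into mtD2- and mtD2+ populations, which gave 4 libraries of each and 4 pairs. Both populations share strain, sex, diet and tissue. RNA was amplified with a kit for very small inputs. The sources used here do not give the age of the mice, the hour of collection or how many cells were sorted. Gene-assigned counts ranged from 18462287 to 27464399 per library, and the members held between 216 and 21941 counts in a library.

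The molecular clock is a feedback loop of transcription. BMAL1 (encoded by Arntl) pairs with CLOCK and binds E-box sequences to switch on the genes of its own repressors, among them the PER and CRY proteins, CIART, and the basic helix-loop-helix repressors BHLHE40 and BHLHE41. The nuclear receptors REV-ERBα (Nr1d1) and REV-ERBβ (Nr1d2) are induced the same way and in turn repress Arntl, while DBP carries the rhythm to output genes. Macrophages have such a clock, and in them it is known to gate the release of cytokines and chemokines.

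The promoter stretches with clock motifs are shown first. Those of Ciart and Nr1d1 are printed in full, picked after their levels turned out to have almost the same pattern. No link between motifs and levels was tested. RefSeq promoter windows of GRCm38.p6, from 250 bases before to 50 bases after a transcript start, were found for 8 of the 10 genes, and Bhlhe40 and Per2 were not matched. The windows were searched on both strands for the E-box CACGTG, the E-prime box CACGTT, the D-boxes TTATGTAA and TTACGTAA, the REV-ERB and ROR motif TAGGTCA and the cyclic AMP response element TGACGTCA, none of which overlapped another where found. Of 32851 windows of all genes, 7.15% held at least 1 E-box, 0.0883% held 3, 4.68% held an E-prime box and 2.61% held TAGGTCA. The Ciart window held 3 E-boxes, starting 116, 58 and 44 bases before the transcript start. Those of Bhlhe41, Per1 and Cry1 held 1 E-box each, at 153, 166 and 60 bases before the start, and Nr1d1 and Cry1 held 1 E-prime box each. Per1 had 2 windows, and the one at its more downstream start held none of the motifs. The 250 bases before the start are printed for Ciart (chr3:95882229-95882478, minus strand) and Nr1d1 (chr11:98775378-98775627, minus strand), 5′ to 3′, with E-boxes and E-prime boxes in capitals (AACGTG is CACGTT on the other strand).
Ciart: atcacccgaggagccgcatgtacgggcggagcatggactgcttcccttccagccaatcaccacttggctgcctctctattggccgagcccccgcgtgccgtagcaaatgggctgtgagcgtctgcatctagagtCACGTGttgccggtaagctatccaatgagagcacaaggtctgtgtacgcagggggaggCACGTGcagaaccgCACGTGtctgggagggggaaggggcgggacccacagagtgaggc
Nr1d1: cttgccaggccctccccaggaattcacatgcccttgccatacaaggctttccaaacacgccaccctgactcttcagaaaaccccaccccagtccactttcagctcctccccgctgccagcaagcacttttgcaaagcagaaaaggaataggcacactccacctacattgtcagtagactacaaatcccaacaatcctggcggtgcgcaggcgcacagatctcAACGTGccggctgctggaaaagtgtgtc

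For Bhlhe41, Per1, Cry1 and Arntl 1 site each is given with 10 bases on each side and the motif in capitals. The E-prime box of Cry1, 79 bases before the start, is not printed. The windows of Nr1d2 and Dbp held none of the motifs searched, which says nothing about other positions. A match is a description of the sequence and not of binding. The sites lie at chr6:145865558-145865583 (Bhlhe41, minus strand), chr11:69098773-69098798 (Per1, plus), chr10:85185099-85185124 (Cry1, minus) and chr7:113207531-113207557 (Arntl, plus). The TAGGTCA of Arntl starts at base 31 of the transcript of the more downstream of its 2 start sites.
Bhlhe41: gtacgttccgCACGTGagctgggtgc
Per1: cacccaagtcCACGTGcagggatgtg
Cry1: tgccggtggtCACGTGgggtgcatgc
Arntl: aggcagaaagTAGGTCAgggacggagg

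The members with the largest differences between the populations were transcriptional repressors of the clock. Ciart, Bhlhe41 and Nr1d1 were 3.19, 3.18 and 2.74 times as high in mtD2+ as in mtD2- macrophages by the paired fit. Dbp was 1.72 times as high and Per1 1.4 times. Levels are CPM (counts scaled to a common library size) with TMM factors, given for mice 1 to 4 in that order, and log2 fold changes are mtD2+ over mtD2- throughout.

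Ciart (ENSMUSG00000038550, chromosome 3, 95878503 to 95882251 on GRCm38) encodes a repressor that binds BMAL1. It stood at 285, 200.2, 122 and 579 CPM in mtD2- and at 776, 814, 577 and 1146 CPM in mtD2+. The level was higher in mtD2+ in each mouse, and the groups touched only because the mtD2- library of mouse 4 matched the lowest mtD2+ library. The log2 fold change was 1.67 (SE 0.20), 1.49 to 1.90 over the fits that left out a mouse. Within mice the log2 ratios were 1.44, 2.02, 2.24 and 0.99.

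Bhlhe41 (chromosome 6, 145858243 to 145865558) encodes an E-box repressor that also takes part in keeping the identity of some tissue macrophages. It stood at 47.7, 40.99, 41.5 and 60.0 CPM in mtD2- and at 151, 149, 188 and 117 CPM in mtD2+. The populations did not overlap, and every mtD2+ library was above every mtD2- library by a wide gap (log2 fold change 1.67, SE 0.19). Its paralogue Bhlhe40 (chromosome 6, 108660629 to 108666925) stood at 37.4, 21.4, 44.6 and 73.6 CPM in mtD2- and at 80.8, 45.5, 79.5 and 70.2 CPM in mtD2+. Here mouse 4 had nearly equal levels, and the other 3 mice had log2 ratios of 1.10, 1.07 and 0.83. The log2 fold change of Bhlhe40 was 0.74 (SE 0.20), and 1.01 without mouse 4.

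Nr1d1 (chromosome 11, 98767932 to 98775333) stood at 36.1, 25.6, 17.6 and 69.9 CPM in mtD2- and at 83.0, 90.2, 78.0 and 111 CPM in mtD2+. The highest mtD2- value, that of mouse 4, was still below all 4 mtD2+ libraries (log2 fold change 1.452, SE 0.23). Nr1d2 (chromosome 14, 18204054 to 18239127), the other REV-ERB gene, stood at 12.4, 15.1, 9.08 and 14.8 CPM in mtD2- and at 28.6, 12.6, 17.8 and 48.7 CPM in mtD2+. Mouse 2 went the other way, so that the spread within mtD2+ was wide (log2 fold change 0.92, SE 0.30).

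The period and cryptochrome genes, which encode the main repressor complex of the loop, differed less. Per1 (chromosome 11, 69095217 to 69109960) stood at 216, 189.5, 215 and 263 CPM in mtD2- and at 318, 244, 315 and 367 CPM in mtD2+. Each mouse had more in mtD2+, by log2 ratios of 0.56, 0.37, 0.55 and 0.48, the narrowest range of the 10 genes, although levels of different mice overlapped (log2 fold change 0.49, SE 0.10). Per2 (chromosome 1, 91415982 to 91459324) stood at 8.62, 9.68, 12.0 and 22.1 CPM in mtD2- and at 13.4, 14.5, 19.3 and 17.7 CPM in mtD2+. It was higher in mtD2+ in mice 1 to 3 and lower in mouse 4 (log2 fold change 0.40, SE 0.23). Cry1 (chromosome 10, 85131702 to 85185054) stood at 9.93, 11.6, 13.04 and 17.6 CPM in mtD2- and at 19.3, 17.1, 14.0 and 37.7 CPM in mtD2+ (log2 fold change 0.68, SE 0.22). Mouse 4 had the highest level in mtD2+, and mouse 3 had almost no difference.

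Dbp (chromosome 7, 45705088 to 45710155), a transcription factor gene under direct E-box control, stood at 25.9, 20.2, 33.2 and 24.2 CPM in mtD2- and at 52.6, 37.9, 52.9 and 34.9 CPM in mtD2+. The populations did not overlap (log2 fold change 0.78, SE 0.15). Arntl (chromosome 7, 113207465 to 113314122), the activator of the loop, stood at 27.6, 49.6, 31.5 and 17.7 CPM in mtD2- and at 31.6, 34.5, 32.6 and 30.7 CPM in mtD2+. Its mean was nearly the same in both populations, 31.6 ± 13.3 and 32.4 ± 1.61 CPM (SD, n = 4). The log2 fold change was 0.12 (SE 0.21), and −0.10 without mouse 4. The mtD2- libraries spread from 17.7 to 49.6 CPM, while the 4 mtD2+ libraries lay within 30.7 to 34.5 CPM, a coefficient of variation of 42.2% against 4.98%.

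**Figure D1:**
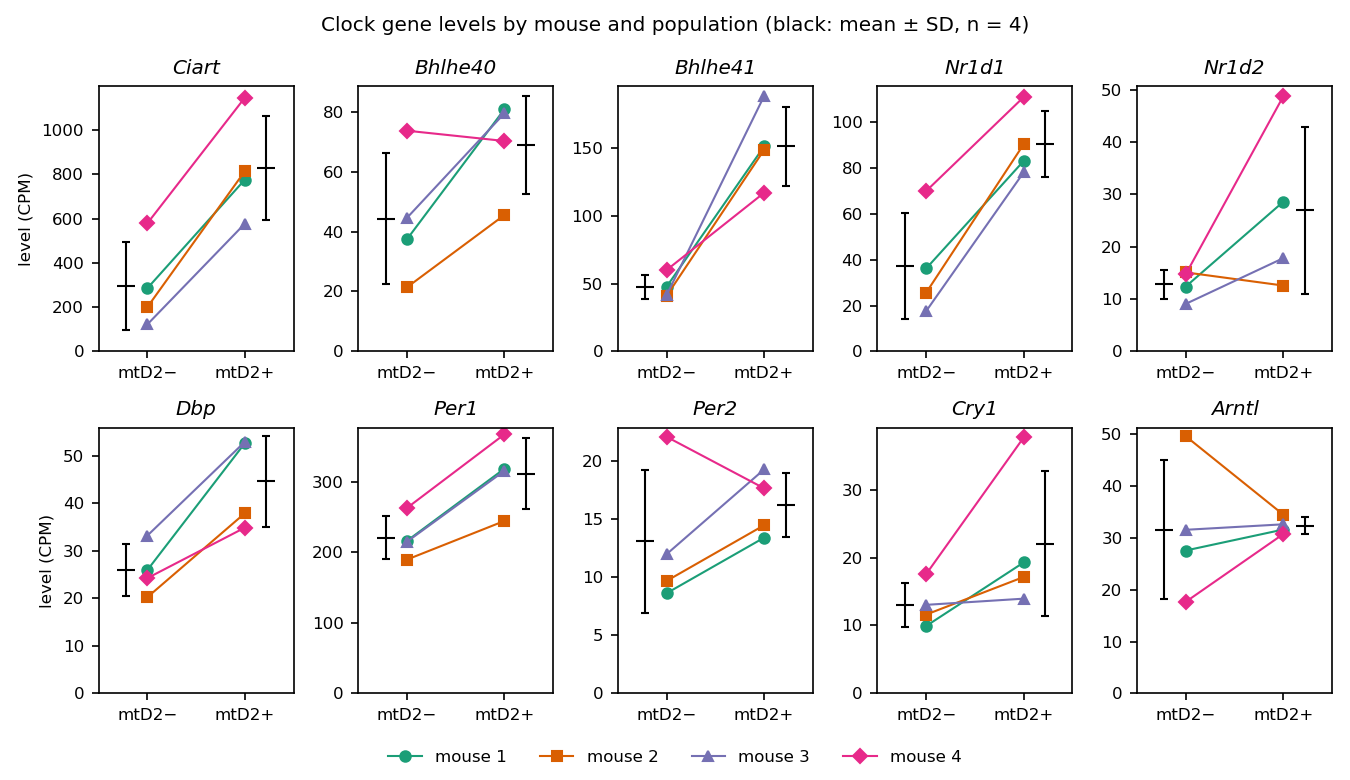
Level of each clock gene (CPM, linear axes from 0) in the mtD2- and mtD2+ library of each mouse, joined by a line, with the mean and SD of the 4 libraries in black. Bhlhe41, Nr1d1 and Dbp have mtD2+ libraries that all lie above the mtD2- libraries, and Arntl has mtD2- libraries spread around a narrow mtD2+ group.

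Of the 10 genes, 5 passed an adjusted p of 0.05 in the fit over all genes (Ciart, Bhlhe41, Nr1d1, Dbp and Per1), all higher in mtD2+. Over all tested genes 5.5% passed in either direction and 3.72% were higher in mtD2+. The higher calls were 67.7% of all calls, and 53.8% with library totals as the only scaling. Of the 10, 6 were higher in mtD2+ in all 4 mice, as were 16.3% of all genes, and 3 had populations that did not overlap with mtD2+ above, as had 6.55% of all genes. The median log2 fold change was 0.76 for the 10 genes and −0.001 for all genes. Because the list was chosen with these differences known, nothing is read from these shares. Calls of the listed genes under other settings come from the same libraries, so they too only describe the fits. Bhlhe41 kept its call in all 12 alternative analyses and Ciart in all but the model without the mouse. Nr1d1 lost it in that model and without mouse 2 or 3 (log2 fold change 1.33 and 1.23), and Dbp and Per1 lost it in that model and without mouse 1, 2 or 3.

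**Figure D2:**
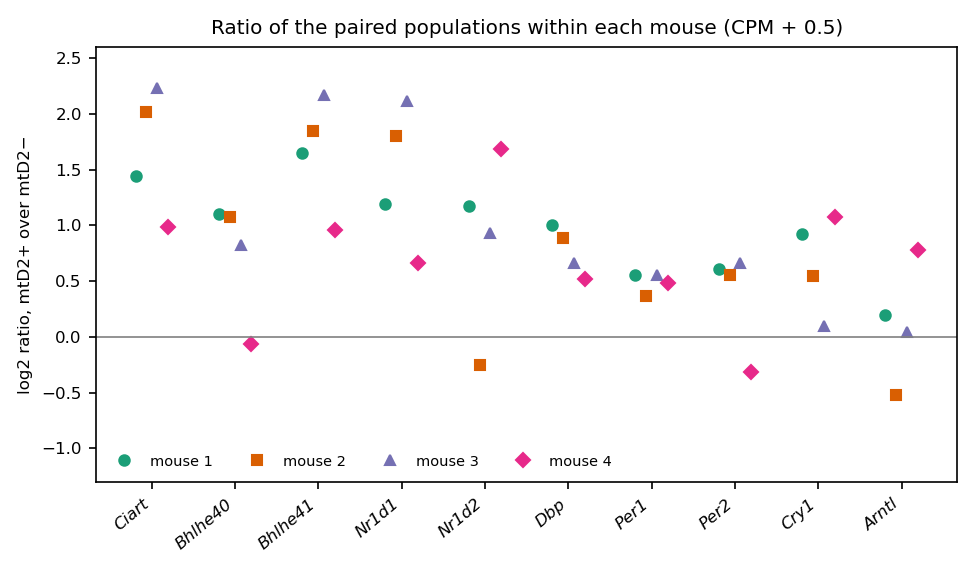
Log2 ratio of mtD2+ over mtD2- within each mouse for the 10 clock genes, computed on CPM + 0.5. For Ciart, Bhlhe41 and Nr1d1 all 4 mice lie above 0 with mouse 4 the lowest, and Arntl has mice on both sides of 0.

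The mtD2- library of mouse 4 stood apart in several of these genes. It had the highest Ciart, Bhlhe40, Bhlhe41, Nr1d1, Per1, Per2 and Cry1 of its population and the lowest Arntl. The same library also had the highest sum over 29 immediate early and heat shock genes, 32150 CPM against 16410 to 21890 CPM in the other mtD2- libraries and 28110 to 33250 CPM in mtD2+. Its sum over 19 fibroblast and preadipocyte genes was 5008 CPM, against 2046 to 2188 CPM in the other mtD2- libraries and 672.5 to 981 CPM in mtD2+. Most of that excess was Gsn and Dcn. Gsn stood at 3269 CPM against 967 to 1094 CPM in the other mtD2- libraries, and Dcn at 694 against 299 to 394 CPM. Col3a1 (207 against 107 to 185 CPM), Serping1 (258 against 116 to 146 CPM) and Lum (84.6 against 28.6 to 62.1 CPM) were also highest there. So were Col6a2, Col6a3, Pdgfra, Pdgfrb, Pi16 and Thy1. Col1a1 and Col1a2 (102 and 143 CPM), Col6a1, Dpp4, Dpt, Mfap5 and Cd34 lay within the range of the others, and Fbn1 just below it. The part of either list in the clock genes was not tested. Without mouse 4, 6 of the 10 genes were called, the 5 above and Bhlhe40. Over all genes 555 of 14045 were called in that fit, 432 of them higher in mtD2+. As the list was chosen with these differences known, nothing is read from this count.

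Ciart and Nr1d1 followed each other closely. Over the 8 libraries the Pearson correlation of their log2 levels was 0.994, and 0.984 after the mean of each population had been taken out. These correlations describe 8 libraries that share the mice and the scaling, and they carry no p-value. Among the 36 pairs of the 9 genes other than Arntl, 30 correlated positively within populations, and all 9 pairs with Arntl correlated negatively, from −0.11 with Nr1d2 to −0.89 with Bhlhe40. The 9 pairs share the same Arntl values and are not separate observations. Arntl spread from 17.7 CPM (mouse 4) to 49.6 CPM (mouse 2) in mtD2- but only from 30.7 to 34.5 CPM in mtD2+. These correlations thus rest mainly on the mtD2- libraries. Bhlhe41, with as large a difference between populations as Ciart, followed Ciart less within populations (r = 0.29). Over all 45 pairs the median correlation was 0.67 over the 8 libraries and 0.38 within populations. The ratio of Nr1d1 to Arntl counts within a library, which needs no scaling, had log2 values of 0.39, −0.95, −0.84 and 1.98 in mtD2- and 1.39, 1.39, 1.26 and 1.85 in mtD2+. It was higher in mtD2+ in 3 mice, while mouse 4 had high values in both populations.

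**Figure D3:**
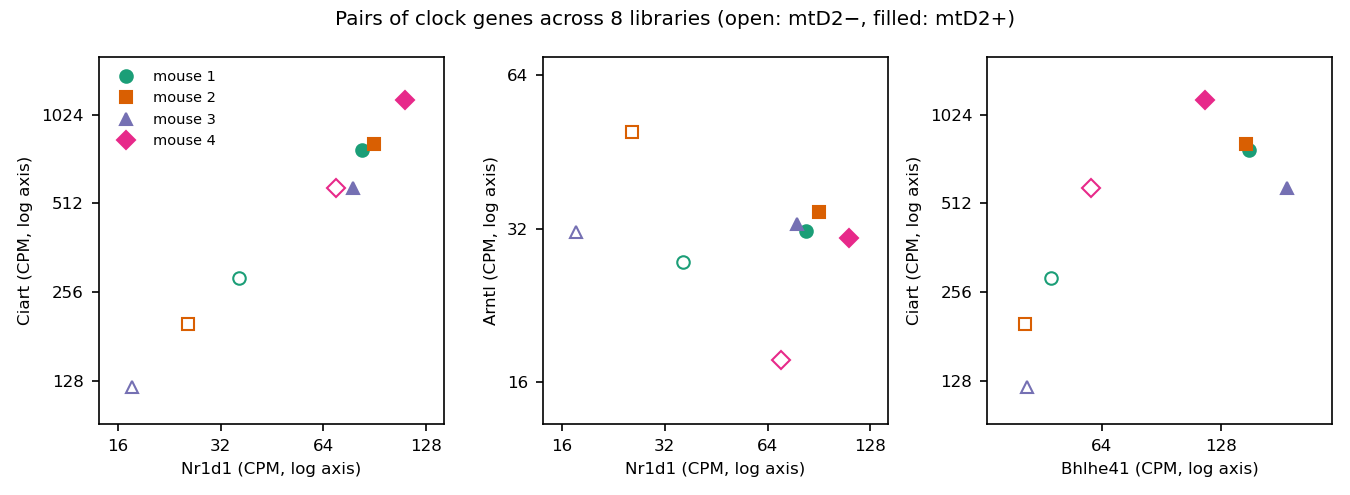
Levels of 3 pairs of clock genes in the 8 libraries (CPM, log axes), open for mtD2- and filled for mtD2+. Ciart and Nr1d1 lie along a line from the mtD2- library of mouse 3 to the mtD2+ library of mouse 4, Arntl is lowest in the mtD2- library of mouse 4, and Bhlhe41 parts the populations more than it orders the mice.

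Levels of different genes were compared as CPM per kilobase of gene length. In mtD2- macrophages the order was Ciart at 131 ± 88.2, Per1 at 39.2 ± 5.41, Bhlhe40 at 13.5 ± 6.68, Nr1d1 at 12.1 ± 7.48, Arntl at 10.9 ± 4.59, Dbp at 8.79 ± 1.84, Bhlhe41 at 7.60 ± 1.41, Cry1 at 4.33 ± 1.09, Nr1d2 at 2.57 ± 0.555 and Per2 at 2.24 ± 1.05 CPM per kilobase (SD, n = 4). Ciart and Per1 were thus the most abundant of the listed clock transcripts, and the neighbours from Bhlhe40 to Bhlhe41 overlapped between libraries, as did Nr1d2 and Per2. In mtD2+ macrophages Ciart stood at 366 ± 104 and Per1 at 55.3 ± 8.97 CPM per kilobase. There Nr1d1 (29.4 ± 4.69) and Bhlhe41 (24.2 ± 4.66) came next, ahead of Bhlhe40 (21.1 ± 5.00), Dbp (15.1 ± 3.24) and Arntl (11.1 ± 0.555). Cry1 (7.30 ± 3.54), Nr1d2 (5.38 ± 3.20) and Per2 (2.77 ± 0.466) were the lowest. From Nr1d1 downwards every neighbouring pair overlapped between mtD2+ libraries.

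Differences between the mice were tested in the same fit and had no part in how the genes were chosen. None of the 10 passed an adjusted p of 0.05 between mice with edgeR, where 0.158% of all genes passed. At an unadjusted p of 0.05, 6 of the 10 passed, against 12.6% of all genes. Ciart had the smallest p (unadjusted 0.00156, adjusted 0.137), with levels averaged over both populations of 471, 404, 266 and 814 CPM in mice 1 to 4. The others were Bhlhe40 (adjusted p = 0.278), Nr1d1 (0.302), Cry1 (0.345), Per1 (0.353) and Dbp (0.397). Bhlhe41 was at the other end, with 85.0, 78.2, 88.6 and 83.8 CPM in mice 1 to 4 (unadjusted p = 0.883, adjusted 0.960), and was thus close to level between mice by these means. Without mouse 4, 3 of the 10 passed the unadjusted threshold, as did 1222 of all 14045 genes tested there. With library totals as the only scaling 4 of the 10 did, as did 1685 of all 13933 genes. Some lists described below had shares near that of the members in the main fit. They were 57.1% for immediate early and heat shock genes, 55.6% for cyclic AMP response genes and 50% for clock output genes. The glucocorticoid list, which holds Per1, had 40%, and the other lists had 0 to 33.3%. The likelihood ratio test of DESeq2 called Ciart (adjusted p = 2.1e-08), Nr1d1 (0.00593) and Bhlhe40 (0.00617) between mice, in a test that called 5.69% of all genes, and limma voom called none. Mouse 4 had the highest Ciart, Nr1d1, Nr1d2, Bhlhe40, Per1, Per2 and Cry1 averages and the lowest Arntl (23.3 CPM, against 29.5, 41.3 and 32.1 CPM in mice 1 to 3).

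The remaining genes of the clock loop were taken from a list of 8 core genes and a list of 8 output genes. These lists and those below were also chosen with earlier results of these libraries known. Their calls and adjusted p-values between populations are therefore a description too. Of the 5 core genes tested, Rora rose and none fell, where 3.72% of all genes rose. Rora encodes the nuclear receptor that binds the same motif as the REV-ERBs and activates it. It stood at 11.7, 20.2, 16.1 and 22.4 CPM in mtD2- and at 30.3, 28.1, 31.4 and 32.1 CPM in mtD2+, with no overlap (log2 fold change 0.83, SE 0.19, adjusted p = 0.0442). Clock, the partner of BMAL1, stood at 70.1, 37.9, 45.0 and 35.7 CPM in mtD2- and at 71.8, 62.0, 89.3 and 75.3 CPM in mtD2+ (0.70, SE 0.18, adjusted p = 0.0564). It was higher in each mouse but barely so in mouse 1, and the call was made in 6 of the 12 alternative analyses. Per3 was at −0.37 (SE 0.17, adjusted p = 0.242), lower in mtD2+ in 3 of 4 mice where Per1 was higher in 4. Cry2 stood at 0.30 (SE 0.29, adjusted p = 0.573) and Timeless at 0.08 (SE 0.19, adjusted p = 0.844). The CLOCK paralogue Npas2, the BMAL1 paralogue Arntl2 and Rorb had too few counts to be tested.

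Of the 8 output genes, Klf10 and Noct rose and none fell, where 3.72% of all genes rose. Klf10, a zinc finger repressor gene under clock control, stood at 511, 330.1, 449 and 705 CPM in mtD2- and at 902, 886, 865 and 1064 CPM in mtD2+, with no overlap (0.95, SE 0.14, adjusted p = 0.00853). Noct, which encodes the rhythmic phosphatase nocturnin, stood at 59.5, 40.1, 22.5 and 45.5 CPM in mtD2- and at 92.0, 47.9, 56.3 and 75.4 CPM in mtD2+ (0.73, SE 0.17, adjusted p = 0.0452). The PAR-domain relatives of Dbp gave no call: Tef was at 0.13 (SE 0.16, adjusted p = 0.670), and Hlf was below 2 CPM in every library. Nfil3, the repressor that competes with DBP for the D-box, was at 0.37 (SE 0.28, adjusted p = 0.475). Wee1 was at 0.38 (SE 0.33), Usp2 at −0.43 (SE 0.41), and Tsc22d3 at −0.39 (SE 0.13, adjusted p = 0.109). The calls of Rora and Noct were lost without any 1 mouse, without the mouse in the model and with library totals as the only scaling. Klf10 lost its call without mouse 3 and without the mouse in the model.

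**Figure D4:**
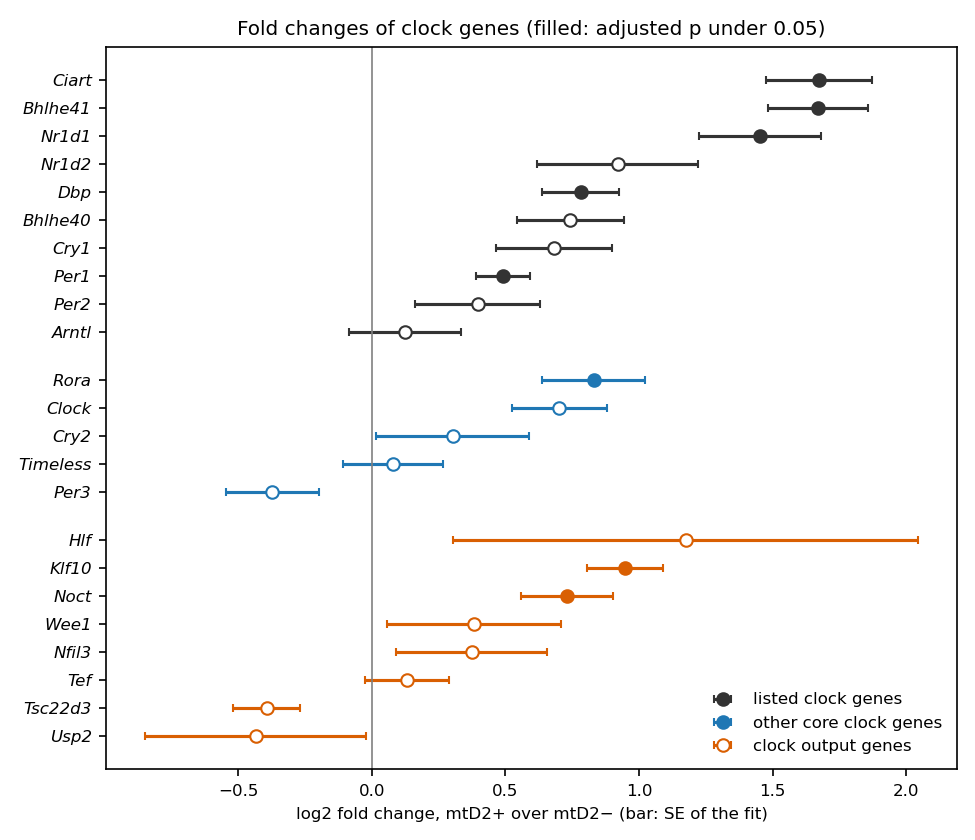
Log2 fold changes of mtD2+ over mtD2- with the SE of the fit for the 10 listed clock genes, 5 other core genes and 8 output genes. Filled points had an adjusted p under 0.05, which is a description for the 10 listed genes and for the others alike. Of the 13 other genes Rora, Klf10 and Noct are filled, and the medians are 0.76, 0.30 and 0.38 in the order of the groups.

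Of 12 tested genes of clock protein turnover, which encode kinases and ubiquitin ligases, none passed with edgeR, at a median of 0.06. With an unadjusted p under 0.05 there were 3, and 1 was called by DESeq2 and 0 by limma voom. The share of all genes at that unadjusted threshold was not counted for the populations. Nothing is therefore read from such unadjusted counts, here or for the lists below. The smallest p was that of the ubiquitin ligase Siah2 (0.61, SE 0.17, adjusted p = 0.0789), then Csnk2b (−0.39, SE 0.13, adjusted p = 0.115). Among 15 cofactors of the loop, Nampt and Sirt1 rose and none fell, at a median of 0.13, where 3.72% of all genes were higher. Nampt is the rate-limiting enzyme of NAD salvage and itself a clock target, and Sirt1 is an NAD-dependent deacetylase that acts on clock proteins. Nampt stood at 101, 76.3, 71.0 and 152 CPM in mtD2- and at 185, 133, 139 and 199.8 CPM in mtD2+ (0.76, SE 0.12, adjusted p = 0.0118). Sirt1 stood at 56.2, 75.1, 41.9 and 117 CPM in mtD2- and at 124, 109, 66.4 and 187 CPM in mtD2+ (0.76, SE 0.13, adjusted p = 0.0136). Both were higher in 4 of 4 mice with overlapping populations, and in both the mtD2- value was again highest in mouse 4. Hdac3, the deacetylase that REV-ERBs recruit through Ncor1, was at −0.44 (SE 0.14, adjusted p = 0.102), lower in 4 of 4 mice.

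Genes known to be repressed by REV-ERBs went both ways. Of 6 tested that are not among the 10 clock genes, Cx3cr1 fell and Ccl2 rose (median 0.54). Over all genes 5.5% passed in either direction. Cx3cr1, the fractalkine receptor, stood at 161, 167, 217 and 131 CPM in mtD2- and at 63.9, 76.4, 92.2 and 78.6 CPM in mtD2+ (−1.11, SE 0.13, adjusted p = 0.00323). Ccl2, a monocyte chemokine, stood at 2241, 1286, 1382 and 2477 CPM in mtD2- and at 4638, 3584, 3571 and 3834 CPM in mtD2+ (1.13, SE 0.15, adjusted p = 0.00495). In both the populations did not overlap. The 6 include Clock and Nfil3, given above. Of 2 macrophage genes under the control of BHLHE40 or BHLHE41 neither passed with edgeR (median 0.30), both had an unadjusted p under 0.05, and DESeq2 and limma voom called 1 each. The cytokine gene Il10 was at 0.86 (SE 0.22, adjusted p = 0.0564), and the transcription factor gene Maf at −0.26 (SE 0.11, adjusted p = 0.203).

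Several signals outside the loop are known to act on single clock genes, and the lists for them were counted beside the members. Over all tested genes 3.72% rose and 248 of 13933 fell with edgeR. DESeq2 called 1130 of all genes higher and limma voom 694. No share of all genes at an unadjusted p under 0.05 was counted for this contrast. Of 28 immediate early and heat shock genes tested, 8 rose and none fell (median 0.38), and those with the smallest p were the chaperone genes Dnaja1 (0.94), Hsp90ab1 (0.70), Hsp90aa1 (0.82) and Hspa8 (0.70). The other calls were the heat shock gene Hspa1b (0.68) and the immediate early genes Atf3 (0.80), Ier3 (0.74) and Fosl2 (0.65). Most immediate early genes were not called, among them Egr1 (0.12), Dusp1 (0.01), Fosb (−0.02), Fos (−0.10) and Ier2 (−0.29). Of 9 genes of the cyclic AMP response, a pathway that induces Per1, none passed with edgeR (median 0.59), 7 had an unadjusted p under 0.05, and DESeq2 called 5 and limma voom 2, all higher. The smallest adjusted p was 0.0740, for Nr4a3 (0.73, SE 0.20), followed by Crem (0.98, SE 0.28, adjusted p = 0.0793). Of 14 genes of the glucocorticoid response other than Per1, which it also induces, 3 rose and none fell with edgeR (median 0.06): Mt2 (0.87), Fkbp5 (0.75) and Zbtb16 (0.56). Lower in mtD2+ without an edgeR call were Ddit4 (−0.67), Il1r2 (−0.40), Tsc22d3 (−0.39), Sgk1 (−0.22) and Cd163 (−0.06). In the list with Per1, DESeq2 called 5 genes higher and 1 (Tsc22d3) lower. Of 19 hypoxia response genes, a pathway that induces Bhlhe40, 3 rose (Hk2 at 1.49, Pfkfb3 at 1.05 and Kdm3a at 0.49) and none fell, at a median of −0.03. Their part in the levels of the clock genes was not tested.

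The genes with the pattern most like 3 of the members were taken by the highest Pearson correlation of log2 CPM over the 8 libraries, among genes with a mean of at least 5 CPM. For Ciart they were Nr1d1 (r = 0.994), the lysosomal small GTPase gene Arl8a (0.991) and the small nucleolar RNA host gene Snhg15 (0.988). For Per1 they were the small MAF transcription factor gene Mafg (0.980), Fhad1 (0.977) and Serpinf2 (0.977). For Arntl they were Ncoa7 (0.976), the interleukin receptor gene Il21r (0.940) and the sorting nexin gene Snx19 (0.939), with log2 fold changes of 0.07, 0.01 and −0.003 between populations. The points share mice, libraries and scaling, so these values rank likeness only.

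The genes of the 3 sort markers were expressed in both populations. Ptprc (CD45) averaged 459.8 CPM in mtD2- and 464 CPM in mtD2+ (0.02, SE 0.11, adjusted p = 0.938). Adgre1 (F4/80) averaged 685 and 466 CPM and fell (−0.55, SE 0.12, adjusted p = 0.0336), and Fcgr1 (CD64) averaged 159.6 and 118 CPM (−0.44, SE 0.11, adjusted p = 0.0554), lower in 4 of 4 mice with no overlap. Of the 12 macrophage genes, 3 fell (Cx3cr1, Aif1 and Adgre1) and Mertk rose, where 248 of all 13933 tested genes fell and 519 rose. Of 18 fibroblast and preadipocyte genes tested, 11 fell and none rose (median −1.80). The sum of 7 endothelial genes was 11.5 to 19.1 CPM in mtD2- and 10.5 to 33.3 CPM in mtD2+. None was called with edgeR, 1 had an unadjusted p under 0.05, and DESeq2 called 1 higher (limma voom 0). Pecam1 averaged 1.51 CPM in mtD2- and 4.37 CPM in mtD2+ (1.73, SE 0.72, adjusted p = 0.199). The sum of 9 lymphocyte genes was 1.92 to 10.1 CPM in mtD2- and 2.17 to 12.96 CPM in mtD2+. Ly6g, a neutrophil marker, had 0 counts in every library. The sum of 9 adipocyte genes was 342.5 to 479 CPM in mtD2- and 342.0 to 576 CPM in mtD2+, and none was called with edgeR, though 3 had an unadjusted p under 0.05 and DESeq2 called 3 higher (limma voom 0). The sum of 8 granulocyte and mast cell genes was 57.0 to 79.7 CPM in mtD2- and 73.9 to 100.2 CPM in mtD2+, of which Csf3r alone made up 56.9 to 81.3 CPM. S100a8 and S100a9 reached 10.5 and 7.02 CPM in the mtD2+ library of mouse 4 and were below 3 CPM in the others. Fewer cells of a type and less RNA per cell cannot be told apart in such bulk libraries, and the part of fibroblast RNA in the clock gene levels was not tested.

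Some members share sequence with genes on the opposite strand, and the sources used here do not say whether the counting used strand. Exons of Nr1d1 share 263 bases with Thra, those of Dbp share 491 bases with Sphk2, and those of Bhlhe40 share 118 bases with 0610040F04Rik, which had 0 counts in all libraries. Ciart lies wholly within the span of the antisense gene C920021L13Rik but shares no exon base with it. Thra stood at 20.2 to 33.8 CPM (0.40, SE 0.15, adjusted p = 0.152), Sphk2 at 34.1 to 63.0 CPM (−0.24, SE 0.19, adjusted p = 0.503) and C920021L13Rik at 4.51 to 13.7 CPM (0.64, SE 0.27, adjusted p = 0.206). The ratios of Nr1d1 to Thra and of Dbp to Sphk2 were higher in mtD2+ in 4 of 4 mice, and that of Ciart to C920021L13Rik in 3 of 4, with log2 values of 7.00 in mtD2- and 6.91 in mtD2+ in mouse 4.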

How the data were processed

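RNA from 8 libraries of sorted macrophages was analysed as 4 pairs, 1 pair per mouse, since the labels name the mouse of each library. The deposited counts are whole reads per Ensembl gene. The authors' deposited CPM and RPKM were checked against the counts and not used further. Per the submitters' processing notes, STAR 2.0.4b, featureCounts 1.45 (Subread) and bcl2fastq were used, with the build GRCm38. Their options and order are not stated there. Symbols of 40340 of 41388 identifiers came from GENCODE M21.

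Counts were tested with the quasi-likelihood F test of edgeR 4.0.16 in R 4.3.3, blocked by mouse and scaled with TMM factors. The expression filter (minimum count 10, minimum total 15, proportion 0.7) left 13933 genes. Adjusted p-values are Benjamini-Hochberg over all of them, called under 0.05, and the SE is the fold change over the square root of F. The same fit tested the 3 mouse terms. The test was also run on simulated counts drawn independently for each library. Its recovery of changes there is not given here, and nothing is read from it. Alternatives were a model without the mouse, 3 scalings, 2 filters, DESeq2 1.42.0, limma 3.58.1 voom, and leaving out each mouse. Deviations of the 2 libraries of a mouse correlated at 0.07, 0.09, 0.19 and 0.30 for mice 1 to 4, and mouse 1 correlated as highly with another mouse (0.07). Replicate pairs differed by 37.8 to 167 times counting noise.

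The members and lists were chosen with earlier results of these data known. Some genes of the lists are not reported here and were left out of them. Named genes are the 10 members, all of the core and output lists, up to 4 genes of smallest p in each other list, and the 3 genes most like Ciart, Per1 and Arntl. Genes named beyond these were chosen after their values were seen.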

Additional observations from a re-analysis of the deposited data

How the results depend on the processing

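The model without the mouse (no replicate block) called 218 genes in place of 767, 147 of them higher in mtD2+, with 1 of the 10 clock genes (Bhlhe41), and 0 of the 13 other clock and output genes. The stricter low-count filter called 1242 (846 higher) and DESeq2 1799 (1130 higher, with 8 of the 10 clock genes and 1 other gene, Tsc22d3, lower). With library totals alone, 1 of the other genes was called (Klf10), and 53.8% of all calls were higher in place of 67.7%. Leaving out a mouse gave 166 to 555 calls, 120 to 432 of them higher, with 2 to 6 of the 10 clock genes and 0 to 2 of the others. Between mice, 22 genes were called, 13 with library totals alone, 260 without a low-count filter, 183 with the stricter filter, 777 with DESeq2, 95 with limma voom and 0 to 11 on leaving out a mouse. Of the 10 clock genes, 1 (Ciart) was called between mice under either other filter and 3 with DESeq2. No scaling moved the median of all genes by over 0.1. The sign turned for 3 log2 fold changes: on leaving out a mouse, Arntl ranged from −0.095 (without mouse 4) to 0.345, Usp2 from −0.859 to 0.019 (without mouse 3) and Timeless from −0.102 (without mouse 2) to 0.185. The cause of these changes was not tested. The other fold changes of the members and of the tested core and output genes kept their sign under all alternatives run, which for Hlf leave out the stricter filter, where it was not tested. Hlf, below 2 CPM, has too few counts for a difference to be detected at this depth.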

Other observations

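Paralogues within the clock list differed in how far they parted the populations, here read from ratios of counts within a library, which need no scaling. The log2 ratio of Bhlhe41 to Bhlhe40 counts was 0.35, 0.94, −0.10 and −0.30 in mtD2- and 0.90, 1.71, 1.25 and 0.74 in mtD2+ for mice 1 to 4, higher in mtD2+ in 4 of 4 mice. The ratio of Nr1d1 to Nr1d2 counts was 1.54, 0.76, 0.95 and 2.24 in mtD2- and 1.54, 2.84, 2.13 and 1.19 in mtD2+, higher in 2 of 4 mice. The ratio of Per1 to Per2 counts had means of 4.17 ± 0.45 and 4.26 ± 0.26 (SD, n = 4), higher in 1 of 4 mice. These ratios were not tested, since the genes were chosen with the population differences known.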
